A study of Mus musculus with 6 samples.

Results

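The core and linker histone genes are described here in B16F10, an established line of mouse melanoma cells. The 73 genes were the rows of the expression table whose symbols begin H1f, H2ac, H2bc, H3c or H4c and end in a number, of 27179 rows in all, and pseudogene symbols ending in -ps were left out. Wild-type cells were cultured for 6 h with 0.01% ozonated olive oil (OZO, 3 cultures) or 0.01% olive oil (OLO, 3 cultures), so the controls also received oil. RNA was sequenced to find genes that respond to OZO. The only expression value used here was the authors' average log2 CPM, which pools the 3 OZO and the 3 OLO libraries. CPM is the number of reads of a gene for each 1000000 reads of a library. A difference between OZO-treated and OLO-treated cells, a value for each library and an SD are therefore not given, and every level below is the average over both groups. No order of levels could be set against the spread between cultures.

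A gene at 1 CPM, which is 0 on the log2 scale, had an average of 19.1 reads in a library, and a scaled library held 19641946 reads on geometric average. A gene with 0 reads in all 6 libraries was allowed a level of up to 0.0255 CPM, a limit that covers counting error only. The melanocyte markers matched the label of the cells, since 7 of 7 were at or above 0, from 6.76 for Sox10 to 12.78 for Dct. Of the keratinocyte markers 0 of 4 and of the leukocyte markers 0 of 3 reached 0, while 1 of 2 endothelial markers (Pecam1, 0.28) and 3 of 3 fibroblast markers (0.21 to 1.71) did. In the germ cell list Ddx4 stood at 2.66, Sycp3 at 0.70 and Dazl at -3.26. The part of these markers in the histone levels was not tested.

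The core histones H2A, H2B, H3 and H4 form the protein core around which DNA is wound in the nucleosome, and the linker histone H1 binds where DNA enters and leaves it. Most of their genes lie in clusters, are used in S phase when new DNA is packed, and have no introns. Their mRNAs usually end behind a short stem-loop, which the stem-loop binding protein Slbp holds, and not in a poly(A) tail. Some of these genes also give longer, polyadenylated transcripts. Replication-independent genes such as H1f0 are used outside S phase, and a further set (H1f6, H1f7, H1f8, H1f9, H2ac1 and H2bc1) is known from germ cells. In bulk RNA, fewer cells in S phase and less histone RNA per cell cannot be told apart.

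The letters of the 3′ stem-loop are shown first, because genes are grouped further on by where their transcripts end relative to them. The search used GGCNCTTTTCAGNGCC, with N for any base, after the stop codon on the transcript strand. Only this pattern was searched, so a stem-loop with other letters would not be found. The sites come from GENCODE M21 transcripts on GRCm38, with the 16 bases of the stem-loop in capitals and the flanks in lower case. H1f2, H2ac25, H3c14 and H4c16 are the highest genes of their types by average log2 CPM that hold it, and H4c8 and H4c18 share the protein of H4c16.
H1f2, chr13:23739507-23739532 (plus strand): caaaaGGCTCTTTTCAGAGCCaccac
H2ac25, chr11:58955167-58955192 (plus strand): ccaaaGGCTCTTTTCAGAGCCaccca
H3c14, chr3:96247322-96247347 (plus strand): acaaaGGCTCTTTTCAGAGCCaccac
H4c16, chr6:136803993-136804018 (minus strand): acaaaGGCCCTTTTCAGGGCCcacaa
H4c8, chr13:23531453-23531478 (plus strand): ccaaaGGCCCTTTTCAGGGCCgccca
H4c18, chr13:21831793-21831818 (minus strand): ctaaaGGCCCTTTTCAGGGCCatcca
Of the 73 genes, 33 held such a site, while in the whole annotation 34 of 22527 coding genes (0.151%) did, and H2bfm was the other. The letters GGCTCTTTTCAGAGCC were found in 26 genes, whose averages ran from no reads to 4.56, and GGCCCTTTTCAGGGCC in 7 genes, whose averages ran from no reads to 0.15. The stem-loop itself therefore came in both forms with and without reads.

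Most histone genes had few reads. An average log2 CPM of 0 or more was reached by 11 of 73 genes (15.1%), against 11878 of 27179 rows of the table (43.7%). No read in any library was found for 17 genes (23.3%), a share close to that of all rows (22.2%), and 33 genes, these 17 included, could be reached with a total of 10 reads or fewer over the 6 libraries. Per kilobase of exonic length, the scale on which genes are compared below, 10 of 73 genes (13.7%) and 42.6% of the 23906 rows with a known length lay at or above 0. On that scale, with genes without reads ranked lowest, the median was -2.43 for the histone genes and -1.86 for all genes with a length. The last gene at or above an average log2 CPM of 0 was H2bc6 at 0.12, and the first below it was H4c14 at -0.25.

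**Figure D1:**
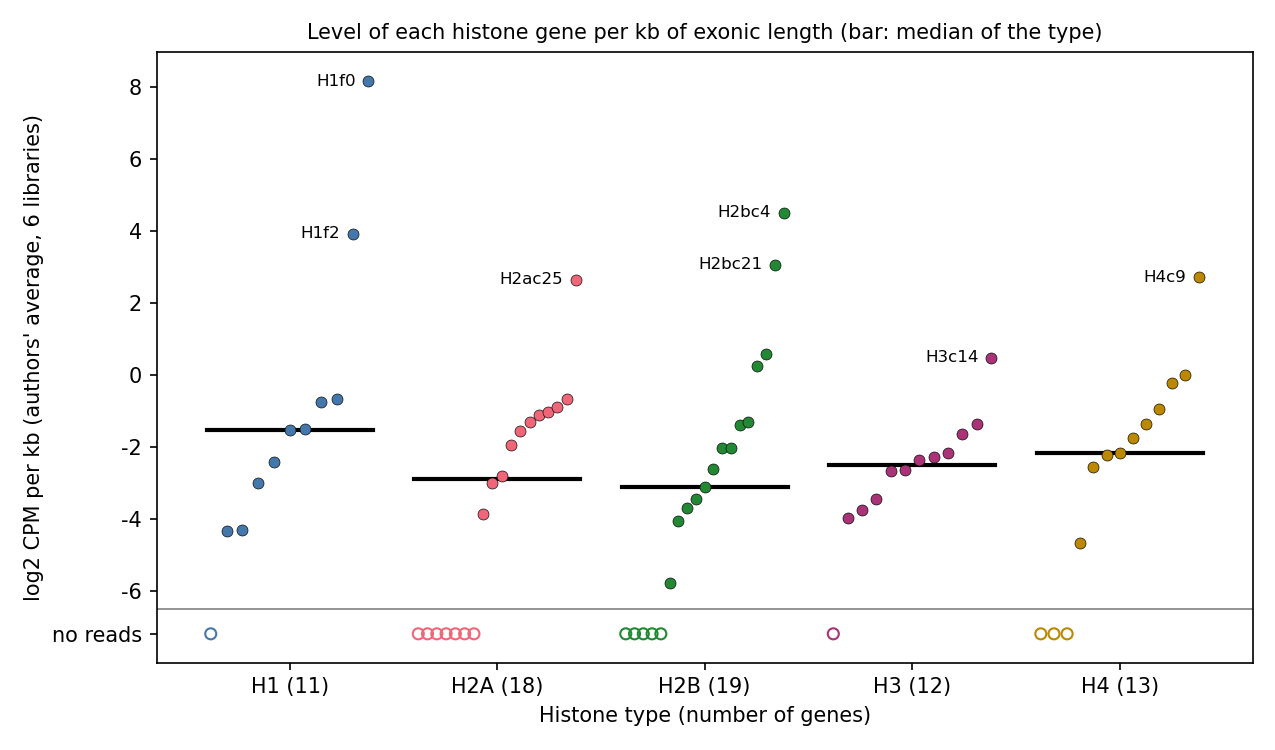
The y axis gives the authors' average log2 CPM per kilobase of exonic length for each of the 73 genes, grouped by histone type on the x axis. Bars are medians with genes without reads ranked lowest, and open circles mark genes without reads. H1f0 stands at 8.17, and the next gene, H2bc4, at 4.51.

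Among the 11 linker histone genes, H1f0 held the highest level of all histone genes. H1f0 (ENSMUSG00000096210, GRCm38 chr15:79028450-79030504, plus strand, 1 exon) had an average log2 CPM of 9.21, or 591 CPM, and only 162 rows of the table were higher. Per kilobase its log2 level was 8.17, which was 12.6-fold above H2bc4, the next gene. H1f0 took 84.6% of the summed CPM of the 73 genes, a share of reads that also depends on transcript length. An exon of Gm49544 overlaps H1f0, so reads at that place could belong to either. H1f2 (chr13:23738808-23740367), a somatic linker histone of the cluster, followed with an average log2 CPM of 4.56 and a log2 level per kilobase of 3.92. H1f3 (0.46) and H1f4 (0.19), also somatic, passed 0 on the average log2 CPM scale but not per kilobase, where they stood at -2.43 and -0.76. The value of H1f3 depended on an annotated exonic length of 7425 bases, and with the RefSeq span of 776 bases its log2 level per kilobase was 0.83. With the RefSeq span H1f4 stood at 0.55. H1f4 shares exon positions with H2bc6 and Gm11398. The remaining somatic genes had few or no reads, with at least 2 reads for H1f1 (-4.77) and 0 reads for H1f5. The replication-independent H1f10, which Gm47286 and Gm5577 overlap, stood at -1.22. Of the germ cell genes, H1f9 was at -0.87, H1f7 at -1.15, H1f6 at -3.14 and H1f8, the oocyte form, at -4.04, all on the average log2 CPM scale. The 11 linker genes had the highest median of the 5 types per kilobase, -1.54.

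Among the 18 H2A genes, H2ac25 alone passed 0. H2ac25 (ENSMUSG00000078851, chr11:58954685-58956830, plus strand) had an average log2 CPM of 3.76 and a log2 level of 2.65 per kilobase. Its exons overlap Trim17 and Gm44313, so part of these reads is uncertain. The next H2A gene per kilobase was H2ac18 at -0.68. No read was found for 7 of the 18 genes, and among those with reads H2ac11 was lowest, with an average log2 CPM of -4.91 and at least 2 reads. The median per kilobase of the H2A genes was -2.90.

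Among the 19 H2B genes, H2bc4 and H2bc21 stood well above the rest. H2bc4 (ENSMUSG00000018102, chr13:23684199-23692908, plus strand, 2 exons) had an average log2 CPM of 4.72, or 26.4 CPM, and 4.51 per kilobase. H2bc21 (ENSMUSG00000068854, chr3:96221119-96223738, plus strand) had 4.46, or 21.9 CPM, and 3.07 per kilobase. H2bc6 was the third gene to pass an average log2 CPM of 0, at 0.12, but it stood at -2.03 per kilobase (1.51 per kilobase of coding length) and shares exon positions with H1f4 and Gm11398. H2bc18 and H2bc8 lay below 0 on the average log2 CPM scale (-0.82 and -0.45) and above it per kilobase (0.58 and 0.24). H2bc12, H2bc23 and H2bc27 were lowest among those with reads, each at -4.77. H2bc1, the testis form, and H2bc13, H2bc14, H2bc15 and H2bc24 had 0 reads. The median per kilobase was -3.13, the lowest of the 5 types on this scale, while H2A was lowest on the average log2 CPM scale (-4.14 against -3.63 for H2B) and H3 among genes with reads (-2.84 against -2.60).

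Of the 12 H3 genes, 11 lay below 0 on both scales. H3c14 (ENSMUSG00000093769, chr3:96246685-96248509, plus strand) was the only H3 gene above 0, with an average log2 CPM of 1.34 and 0.47 per kilobase, and Gm20634 overlaps it. The next per kilobase was H3c8 at -1.37. H3c11 had 1 read over the 6 libraries (-5.03), and H3c10 had 0. The median per kilobase was -2.52.

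Of the 13 H4 genes, H4c9 and H4c16 passed 0. H4c9 (ENSMUSG00000060639, chr13:22040636-22041362, minus strand) had an average log2 CPM of 2.25, or 4.77 CPM, and 2.71 per kilobase, which placed it above H2ac25 on that scale. H4c16 (ENSMUSG00000096010, chr6:136801553-136804415, minus strand), which lies apart from every other histone gene, had 0.15 and -1.37 per kilobase. With the RefSeq span of 439 bases in place of an exonic length of 2863, it stood at 1.34 per kilobase. H4c14 was just below 0 at -0.25. H4c11 had 1 read over the 6 libraries, and H4c12, H4c17 and H4c18 had 0. The median per kilobase was -2.17. The plot of levels by type shows how the values of the 5 types overlap below 0, while 2 H1, 1 H2A, 4 H2B, 1 H3 and 2 H4 genes lie at or above 0 per kilobase. Those H4 genes are H4c9 and H4c2, and H4c2 lies at the limit with 0.00036 per kilobase and an average log2 CPM of -1.33.

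Genes for the same protein differed widely in level. All 13 H4 genes encode the same protein of 103 residues in the annotation, yet they ran from no reads to 2.71 per kilobase. Of the H3 genes, 8 share the protein of H3c14 (136 residues), and the other 7 of these (H3c4, H3c15, H3c13, H3c3, H3c2, H3c7 and H3c6) had average log2 CPM values of -3.71 to -2.33. The other 4 H3 genes (H3c8, H3c1, H3c11 and H3c10) share a second protein of the same length and reached -2.29 at most. H2bc4 shares its protein of 126 residues with H2bc6 and H2bc8, the other 2 at 0.12 and -0.45. In the largest H2A group, 9 genes encode 1 protein of 130 residues, H2ac6 was highest at -0.63, and 4 of 9 had no reads. A protein of its own was encoded by 27 genes, H1f0, H2bc21 and H2ac25 among them. H2bc26 is annotated as a pseudogene (Hist3h2bb-ps) although its symbol does not carry the ending, and it had -2.50.

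The genes lay at 10 places in the genome, with a new place begun wherever neighbours were over 1 Mb apart, and the places differed in how many genes had reads. The first group on chromosome 13 (chr13:21715763-22043676) held 23 genes. There 14 had no reads, and H4c9 alone passed 0. Near-identical copies were common there, since 14 of 23 genes, 9 of the 14 without reads among them, shared at least 50% of their 150-base windows with transcripts elsewhere, against 2 of 31 in the second group on chromosome 13. Among genes sharing less, 5 of 9 and 2 of 29 had no reads. The second group on chromosome 13 (chr13:23531050-23934851) held 31 genes. Of these 3 had no reads (H2ac1, H2bc1 and H2ac10), and 5 passed 0 (H2bc4, H1f2, H1f3, H1f4 and H2bc6). The group on chromosome 3 (chr3:96219865-96270132) held 10 genes, all with reads, of which H2bc21 and H3c14 passed 0, and its median per kilobase of -1.12 was above the -2.18 of the second group on chromosome 13. The 3 genes on chromosome 11 (chr11:58948920-58956830) were H2ac25, H2bc26 and H2bc27. The other 6 genes stood alone: H1f0 and H1f7 on chromosome 15, H1f8, H1f10 and H4c16 on chromosome 6, and H1f9 on chromosome 11.

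**Figure D2:**
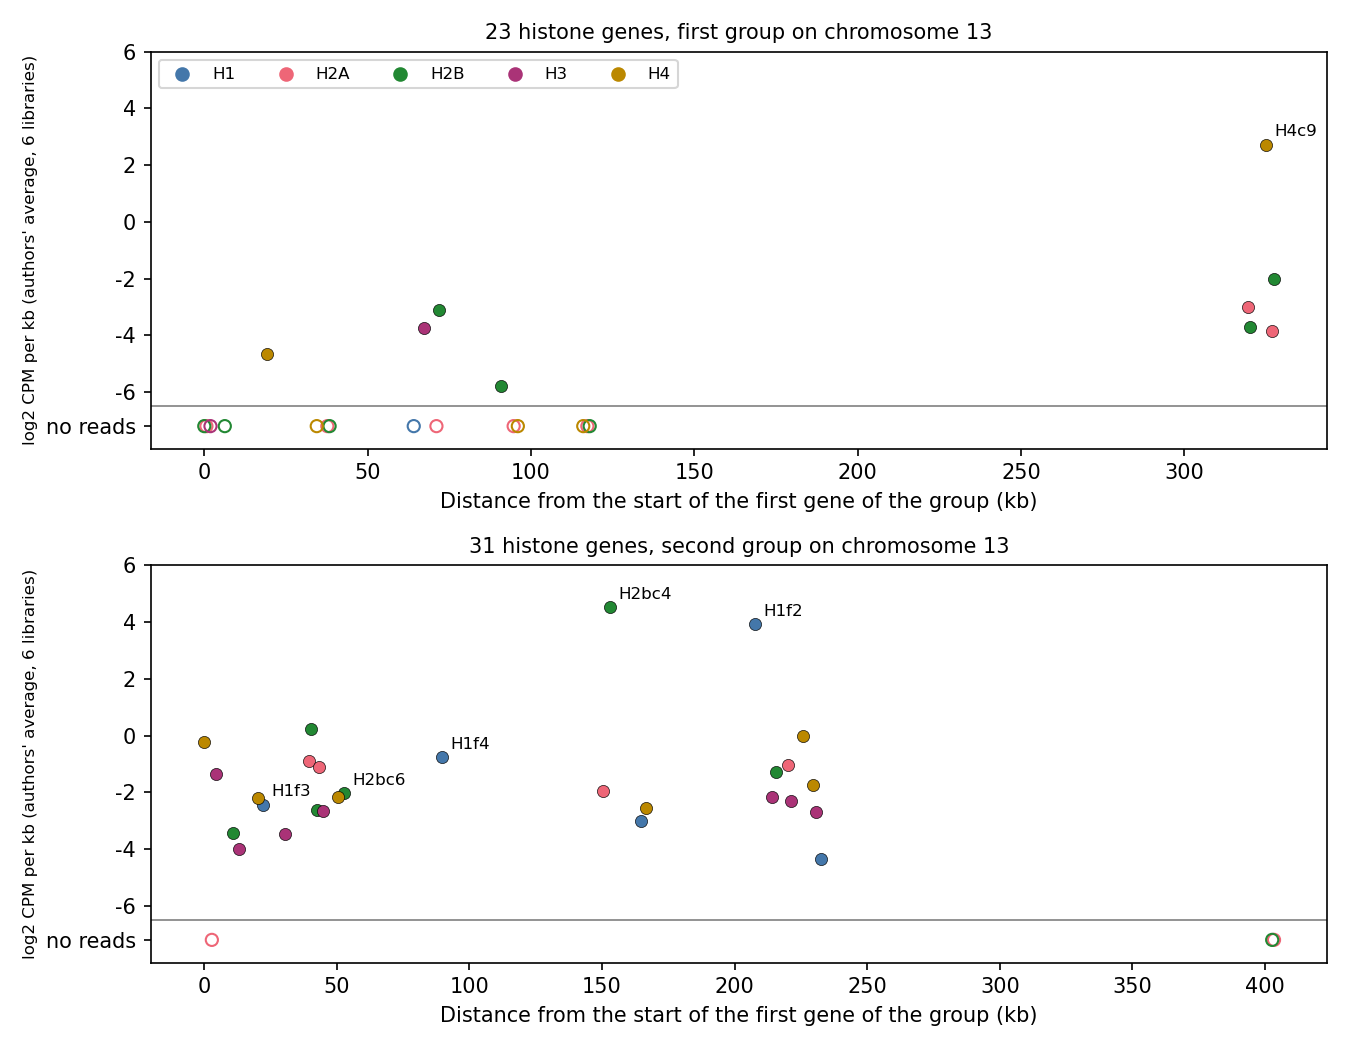
Each point is a histone gene in either group on chromosome 13, with its distance in kilobases from the first gene of the group on the x axis and the authors' average log2 CPM per kilobase on the y axis. Colours are histone types and open circles are genes without reads. In the first group 14 of 23 genes lie in the strip without reads, and H4c9 stands at 2.71, while in the second group 3 of 31 do.

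Genes whose annotated transcript ran past the stem-loop had a higher average log2 CPM than genes whose transcript ended at it. In 17 of the 33 genes with the letters the transcript ended within 100 bases of them. Of these 0 of 17 reached an average log2 CPM of 0, the highest was H4c8 at -1.32 (-0.23 per kilobase), and 5 had no reads (H2ac23, H2ac24, H2bc14, H4c17 and H4c18). In the other 16 genes the transcript went on for 100 bases or more. Here 7 of 16 reached 0 (H1f2, H2ac25, H3c14, H1f3, H1f4, H4c16 and H2bc6), and 0 had no reads. Transcript length enters the first of these scales, and the gap between the groups depended on the length used as divisor. Per kilobase of exonic length the medians were -2.61 for the short and -1.99 for the long group, with 0 of 17 and 4 of 16 genes at or above 0. Per kilobase of coding length, an alternative added after seeing the data, they were -2.31 and 0.75, with 1 of 17 and 9 of 16 genes at or above 0. The groups also differed in near-identical sequence, since 8 of 17 and 1 of 16 genes shared at least 50% of their 150-base windows with transcripts of genes elsewhere (medians 49.5% and 2.64%). The part of this in the difference was not tested. H1f2 is the highest gene of the long group, and its transcript goes on for 840 bases after the site printed above. H2ac25 goes on for 1643 bases and H4c16 for 2445. H4c8, which has the H4c16 protein, goes on for 46. A further 13 genes had an annotated end at the stop codon itself, and 10 of these had no reads.

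**Figure D3:**
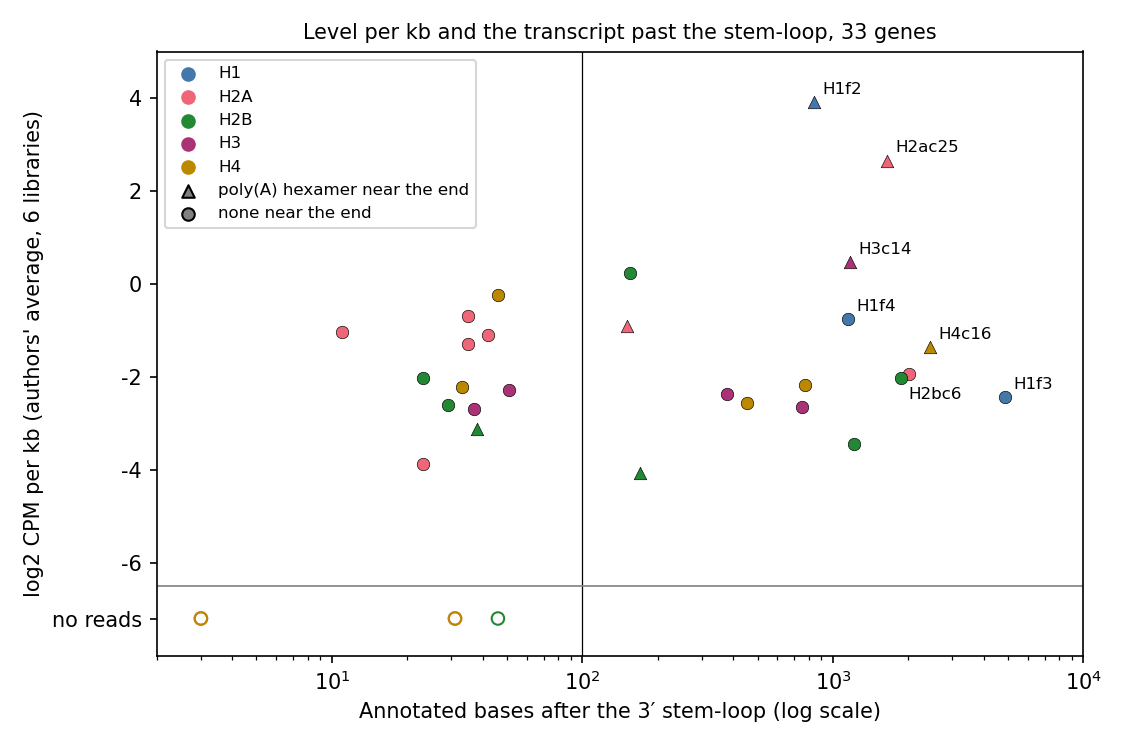
For the 33 genes with the stem-loop letters, the x axis gives the annotated bases after the stem-loop on a log scale and the y axis the authors' average log2 CPM per kilobase. The vertical line is at 100 bases, triangles mark genes with the hexamer AATAAA in their last 50 bases, and open symbols mark genes without reads, some of which lie on top of each other. The 4 genes at or above 0 lie to the right of the line, and the 5 genes without reads to the left.

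The hexamer AATAAA, the usual signal for adding a poly(A) tail, was searched on the transcript strand in the last 50 bases after the stop codon. It was found in 18 of 73 histone genes, against 64.4% of all 22527 coding genes. With the hexamer 6 of 18 genes reached an average log2 CPM of 0 (H1f0, H1f2, H2bc21, H2ac25, H3c14 and H4c16), and 1 of 18, H2bc24, had no reads. Without it 5 of 55 reached 0 (H2bc4, H4c9, H1f3, H1f4 and H2bc6), and 16 of 55 had no reads. Of these 55 genes, 13 had an annotated end at the stop codon, so no bases could be searched in them. Among those 13 genes, 10 had no reads. The groups also differed in near-identical sequence and in length, since 2 of 18 and 18 of 55 genes shared at least 50% of their 150-base windows, and the median longest transcript had 1388.5 bases with the hexamer and 488 without. The part of these in the difference was not tested. Per kilobase the medians were -1.43 with and -2.61 without the hexamer. Of the 6 genes with the highest level per kilobase, H1f0, H1f2, H2bc21 and H2ac25 held it, and H2bc4 and H4c9 did not. The hexamer and the stem-loop letters stood together in 7 genes, H1f2, H2ac25, H3c14, H4c16, H2ac8, H2bc22 and H2bc27. H1f0, H2bc4, H2bc21 and H4c9 lacked the searched stem-loop letters in their annotated transcripts, which does not exclude a stem-loop with other letters.

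Genes read away from each other across a short gap could differ widely in level. There were 14 such pairs with starts within 1000 bases, at gaps of 173 to 660 bases, and 13 of them joined an H2A with an H2B gene. In 3 pairs 1 partner passed an average log2 CPM of 0, in 0 pairs both did, and in 4 pairs both had no reads. H2bc4 stood at 4.51 per kilobase and H2ac6, 251 bases away, at -1.94. H2bc21 stood at 3.07 and H2ac20, 239 bases away, at -1.56. On chromosome 11 the direction was the opposite, since H2ac25 stood at 2.65 and its H2B partner H2bc26, 173 bases away, at -1.40. These are differences of 6.45, 4.63 and 4.05 on the log2 per kilobase scale. Among the other 5 pairs with reads in both genes the differences ran from 0.53 (H2bc9 over H3c7) to 1.84 (H2bc11 over H2ac11).

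**Figure D4:**
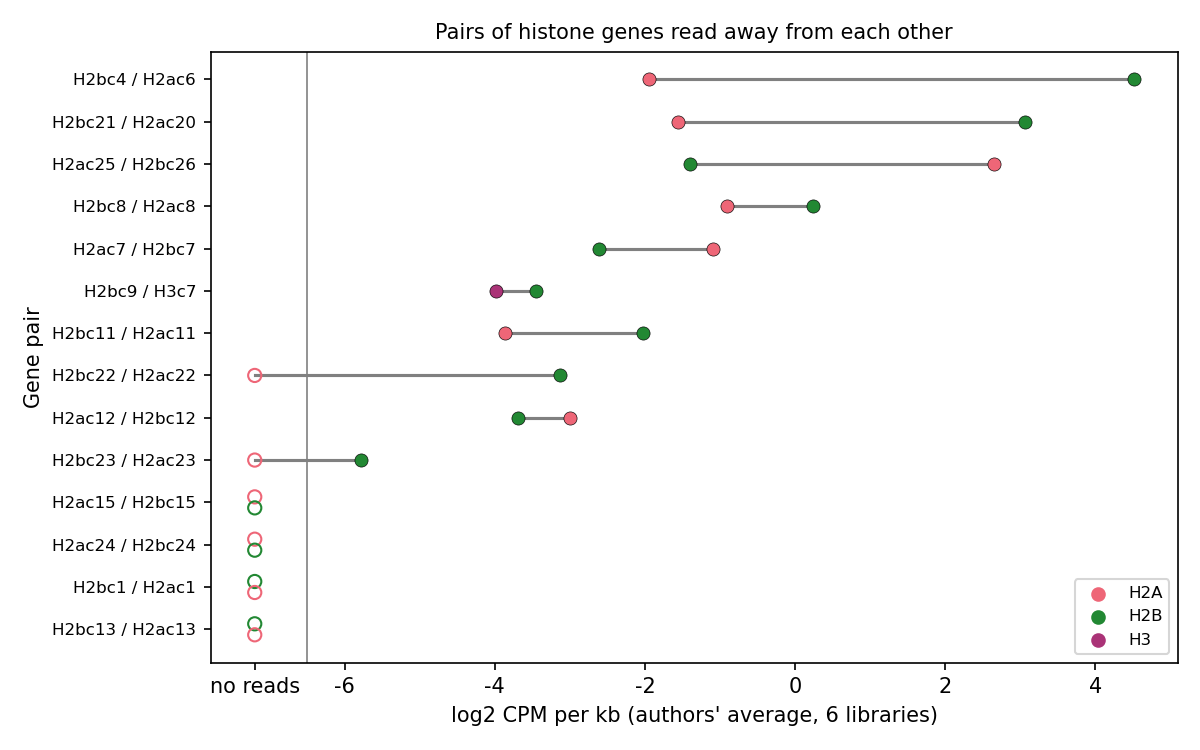
Each row is a pair of histone genes with starts within 1000 bases, read in opposite directions, and the x axis gives the authors' average log2 CPM per kilobase. Colours are histone types and open circles are genes without reads. The upper 3 pairs join a gene between 2.65 and 4.51 with a partner between -1.94 and -1.40.

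Promoters of the histone genes held the letters of known control elements more often than promoters at large. RefSeq windows on GRCm38.p6, from 250 bases before to 50 after a start, were held for 67 of the 73 genes (68 windows), and not for H2bc4, H2bc21, H4c14, H3c1, H3c7 and H2bc26. Letters were searched on both strands. The hexamer TATAAA, known from core promoters, was present in 51.5% of the histone windows and in 13.6% of all 32851 windows. CCAAT, the CCAAT box, was present in 82.4% and 37.4%. ATGCAAAT, the octamer that OCT1 binds, was present in 20.6% and 1.74%. CCAAT was in 18 of 18 H2A, 17 of 17 H2B and 10 of 10 H3 windows but in 3 of 12 H4 windows, and ATGCAAAT was in 7 H2A and 7 H2B windows and in 0 of the others. Paired H2A and H2B genes share parts of their windows, so these counts are not of separate sequences. At an average log2 CPM of 0 or more, 3 of 10 windows held TATAAA, 7 of 10 CCAAT and 2 of 10 ATGCAAAT. Among genes without reads the counts were 10, 14 and 3 of 17. Of the highest genes, the windows of H1f0, H2ac25 and H4c9 are printed, together with that of H4c12, which encodes the protein of H4c9 and had no reads. Capitals mark any of the 3 sets of letters, on either strand.
H1f0, chr15:79027962-79028261 (plus strand): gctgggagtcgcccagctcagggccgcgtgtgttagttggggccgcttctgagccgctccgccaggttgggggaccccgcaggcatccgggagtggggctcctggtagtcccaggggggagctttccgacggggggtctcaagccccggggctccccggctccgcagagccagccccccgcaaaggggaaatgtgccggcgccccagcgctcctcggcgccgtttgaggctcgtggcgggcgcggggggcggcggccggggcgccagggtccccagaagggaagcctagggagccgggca
H2ac25, chr11:58954435-58954734 (plus strand): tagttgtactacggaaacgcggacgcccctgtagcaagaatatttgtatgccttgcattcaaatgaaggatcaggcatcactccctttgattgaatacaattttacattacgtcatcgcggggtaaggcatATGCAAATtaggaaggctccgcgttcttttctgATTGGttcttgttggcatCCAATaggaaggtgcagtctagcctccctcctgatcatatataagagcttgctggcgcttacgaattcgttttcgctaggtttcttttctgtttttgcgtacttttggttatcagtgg
H4c9, chr13:22041313-22041612 (minus strand): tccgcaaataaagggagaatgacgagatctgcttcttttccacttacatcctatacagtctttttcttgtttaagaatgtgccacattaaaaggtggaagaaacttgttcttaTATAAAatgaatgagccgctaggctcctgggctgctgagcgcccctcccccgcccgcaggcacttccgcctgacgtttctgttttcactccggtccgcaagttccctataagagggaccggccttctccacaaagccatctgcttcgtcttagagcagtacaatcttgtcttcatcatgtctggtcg
H4c12, chr13:21750504-21750803 (minus strand): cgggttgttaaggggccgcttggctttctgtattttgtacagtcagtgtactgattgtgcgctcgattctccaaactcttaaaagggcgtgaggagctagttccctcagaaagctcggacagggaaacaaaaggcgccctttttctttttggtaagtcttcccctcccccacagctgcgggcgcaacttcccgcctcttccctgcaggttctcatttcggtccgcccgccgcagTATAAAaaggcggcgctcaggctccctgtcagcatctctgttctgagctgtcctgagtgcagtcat
H1f0 held none of the letters, and H2ac25 held CCAAT on each strand and ATGCAAAT once. H4c9 and H4c12 both held TATAAA and neither of the others, so the presence of the letters alone did not separate these H4 genes. The place of TATAAA differed, since it lies close to the start in H4c12 and farther before it in H4c9. H4c12 also shared 53.4% of its transcript windows with genes elsewhere, and its annotated transcript ends at the stop codon. The lack of reads for H4c12 is therefore uncertain.

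Near-identical copies limit what the low values mean. The reads were paired and 150 bases long. Windows of 150 bases stand for single reads and not for pairs, and only exact matches to annotated transcripts were counted. Of the 73 genes, 20 shared at least 50% of their windows with transcripts of genes elsewhere. Of these 0 of 20 reached an average log2 CPM of 0 and 10 had no reads. Of the other 53 genes 11 reached 0 and 7 had no reads. How reads with several matching places were counted is not given in the sources used here, so a low level of H2ac18 and H2ac19 (95.4% and 100% shared), H3c10 (90.5%) or H4c17 (85.8%) is uncertain. Shared windows did not always go with an absence of reads, since H2ac18 had at least 41 reads over the 6 libraries and H2ac19 at least 30. Gm20633, Gm20634 and Gm47313 overlap H2ac18, and Gm20632 and Gm47311 overlap H2ac19, so these reads are uncertain as well. The 11 genes at or above 0 shared at most 30.8%, and H1f0, H1f2, H2bc21, H2ac25, H1f3 and H1f4 shared none. H1f5, H2ac1, H2ac15 and H2bc14 shared none either and had no reads.

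The low histone values stood beside high values of genes that work with histones. Of the S phase genes 22 of 22 reached an average log2 CPM of 0, from 3.77 for Gins2 to 10.29 for the topoisomerase Top2a, and their median per kilobase was 5.03. Of the histone chaperones and deposition factors 17 of 17 reached 0, from Daxx at 4.86 to Npm1 at 10.64. Of the factors for histone gene transcription and 3′ ends 14 of 14 did, from Zfp473 at 2.09 to Sympk at 7.68. Slbp, which binds the stem-loop, stood at 7.41 and Npat, an activator of histone genes, at 6.44. Among histone variants outside the clusters 8 of 11 reached 0, with a median of 3.23 per kilobase. H2az1 was highest at an average log2 CPM of 7.68, H3f3b stood at 1.67, and H2bl1, Macroh2a2 and H2al2a stood below 0. Of other RNAs known to lack a poly(A) tail 1 of 15 reached an average log2 CPM of 0 (Rn7sk, 0.30), and 2 (Rnu1b1 and Rnu6) had no reads. The median average log2 CPM of the 15 was -3.61, against -2.86 for the histone genes. These RNAs are short, and for the 6 of 15 with a known length the median per kilobase was -0.44, with Rnu7 at 4.005 and Rmrp at 0.06. Rnu7 (62 bases), Rny3 (102 bases) and Rny1 (112 bases) are shorter than a single read. Division by length moved Rny3 from an average log2 CPM of -4.77 to -1.47, and Rny1 from -4.64 to -1.49. The median per kilobase therefore cannot rank these RNAs against the histone genes. The kit for the libraries was named in the sources used here, but a step that selects poly(A) RNA or removes ribosomal RNA was not. The part of such a step in the levels was not tested.

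**Figure D5:**
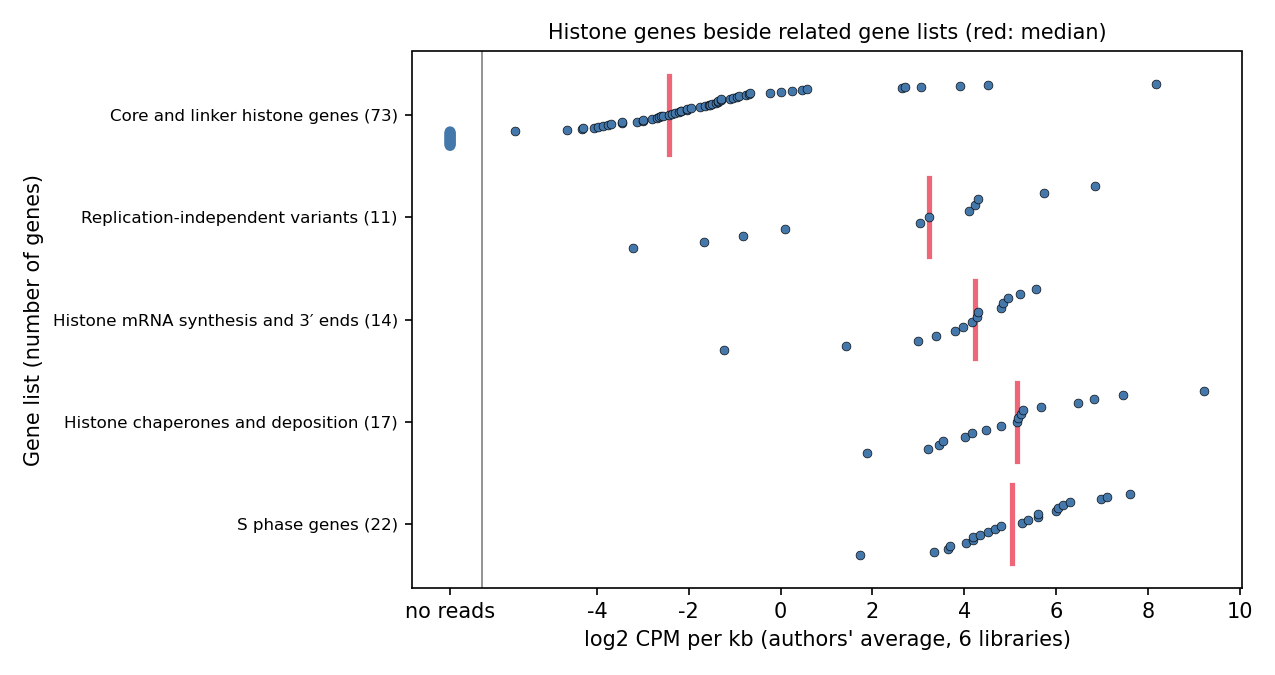
The x axis gives the authors' average log2 CPM per kilobase, each point is a gene, and red lines are medians with genes without reads ranked lowest. The histone genes have their median at -2.43, and the 4 lists below lie at medians of 3.23 to 5.15.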

How the data were processed

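RNA of B16F10 cells (3 OZO and 3 OLO cultures) was sequenced by the authors in paired reads of 150 bases. According to the sources used here, reads were aligned to mm10 with HISAT2 2.1.0 and counted with featureCounts 2.1.1, and limma 3.58.1 (voom) gave the deposited average log2 CPM per gene over the 6 libraries, with 0.5 added to each read count. Annotation, strand and multiple matches in counting are not given in the sources used here. The table also holds the authors' comparison of OZO with OLO (fold changes, statistics, p-values), which was not used, so no test was made. The plan's fit of OZO against OLO needed values per library and was not made. Replicates were taken from the sample labels, and the study describes them as coming from independent experiments.

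Rows without reads share the lowest average, -5.30, which gives the geometric mean of scaled library sizes, 19641946. Raising 2 to 6 times the difference from it gives the product over libraries of 2 × reads + 1, an odd whole number (within 0.001) in 12998 of 12998 rows with products up to 1000000. These rows include the 6025 rows without reads, where this result was fixed in advance. Single libraries' depth is unknown. This step was tested on simulated counts. Lengths are unions of exons in GENCODE M21 (GRCm38), where all 73 genes and 23845 of 24065 Ensembl identifiers were found. The stem-loop was searched in the transcripts after the stop codon only, since no genome sequence was used, and not in the bases past their ends as planned. The members, lists and features were chosen with earlier results of these data known. Genes named were those at or above 0, the extremes of each type, the genes at the limit, genes sharing a protein with these, and counts of 5 or fewer. Other genes named were chosen after their values were seen. Python 3.11.15, numpy 2.4.6, pandas 2.3.3 and Biopython 1.88 were used.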

Additional observations from a re-analysis of the deposited data

How the results depend on the processing

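The values are limited by depth and by pooling: 33 genes could rest on 10 reads or fewer, and the average gives neither a spread between cultures nor an effect of OZO. The authors' own comparison of OZO with OLO was not used. No paired analysis was possible because no column of a single library was used, and leaving out a culture was not run for the same reason. Of 73 genes, 11 lay at or above an average log2 CPM of 0. With a limit of 1 the count was 7, and with genes that overlap no other annotated gene it was 6. It was 16 with a limit of -1, 10 per kilobase, and 11 among genes with under 50% of windows shared, an alternative chosen after seeing the data.

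Counting error was taken for a single gene at the median level, which does not measure the spread of a median over genes. Medians of the average log2 CPM moved past it as follows. Among genes with reads they were -2.12 for H2A (all 18 genes: -4.14), -2.60 for H2B (all 19: -3.63) and -1.66 for H4 (all 13: -2.64). Without overlapping genes the H1 median was -2.15 (all 11: -1.15), and no H2A gene was left. Per kilobase, which is a change of unit, the H2A median was -2.90. Among genes with under 50% of windows shared the median of the average log2 CPM was -2.31 for H2A and -1.66 for H4. Of the 11 genes at or above 0, 7 were also at or above 0 per kilobase of exonic length. With the coding length as the divisor all 11 were, and with the RefSeq span, added after seeing the data and held for the 9 of these genes with 1 exon, all 9 were. Among genes whose transcript went on past the stem-loop, the count at or above 0 per kilobase moved from 4 to 9 of 16 with the coding length, and among those that ended at it from 0 to 1 of 17. H1f0 was the highest gene with every length tried (exonic, coding, longest transcript, RefSeq span), and the same 6 genes led with all of these but the RefSeq span, where H3c14 took the place of H2bc4, a gene of 2 exons that this length leaves out.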

Other observations

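Bounds on the read counts behind the pooled average were computed for 67 genes. The gene H1f10, a replication-independent linker histone, was singled out after its values were seen. Its average corresponded to 7.96 reads in a library, yet the only products that fit it require at least 39 reads in 1 of the 6 libraries and at least 68 in all. Its product over libraries, 23431005, lay within 2e-07 of a whole number. Exons of Gm47286 and Gm5577 overlap H1f10, so its reads are uncertain. Which library held the 39 reads, and whether it was an OZO or an OLO culture, cannot be told from the average.

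Across the 73 genes, Spearman's rho between the longest annotated transcript and the average log2 CPM was 0.61, and with the level per kilobase it was 0.28. Among the 56 genes with reads these were 0.49 and 0.11. Between the share of windows found elsewhere and the average log2 CPM rho was -0.39 over the 73 genes, and with the level per kilobase it was -0.25. Genes are not independent replicates, they share libraries and many share sequence, so these are descriptions only.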
